A study of Mus musculus with 6 samples.

Results

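The genes described here make ribosomes: 45 listed factors of ribosomal RNA synthesis, nucleolar structure, small nucleolar RNA particles and assembly of the small and large ribosomal subunits. Each was taken as the array probe sets whose platform annotation carries its symbol, and 43 of the 45 were found, with 1 probe set each, among 19505 gene symbols and 22206 probe sets in all. No probe set carried the symbols Gnl3 or Nop56, so their levels are not analysed here, and they enter only the promoter counts. The RNA came from mouse HoxB8 neutrophil progenitors, cells held immature by the transcription factor Hoxb8, on day 1 in a medium with serum, stem cell factor supernatant and β-mercaptoethanol. Of the 6 Affymetrix Mouse Clariom S arrays, 3 were from cells expressing WT-C/EBPα (WT) and 3 from cells expressing K313-C/EBPα (K313), a form that the series title ties to acute myeloid leukaemia and to translation. How the forms were introduced, whether each group is 1 clone and whether the cells keep their own C/EBPα are not given in the sources used here. Nothing in the labels tells whether the 3 replicates of a group are separate cultures. The p-values therefore reflect the scatter of these arrays alone, and that scatter may be technical.

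Ribosomes are built in the nucleolus. RNA polymerase I copies the ribosomal DNA into a long precursor, small nucleolar ribonucleoproteins (snoRNPs) guide its methylation and pseudouridylation, and a series of assembly factors cleaves it and loads ribosomal proteins to give the small (40S) and large (60S) subunits. Many of these factors are transcriptional targets of MYC and are high in proliferating cells, and their levels fall as granulocyte precursors mature. C/EBPα is the transcription factor that starts granulocyte formation and restrains growth.

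The arrays were alike in signal, with medians between 5.01 and 5.13 on the log2 scale and values between 2.21 and 18.59. Pearson's r across probe sets, which are not independent points, was 0.994 to 0.996 within a group and 0.983 to 0.989 between groups. The granulocyte progenitor list, which also counts Hoxb8, was high on average (mean of 7 genes 14.85 to 14.96 in WT arrays and 14.83 to 14.92 in K313 arrays). Its genes did not stay level: of the 7 in the list 3 rose and 2 fell. The granule proteases Elane (11.63 in WT and 14.91 in K313), Ctsg (15.15 and 16.90) and Prtn3 (15.54 and 16.48) rose, Cd34 (16.33 and 15.40) and Hoxb8 itself (12.98 and 8.34) fell, and myeloperoxidase, Mpo (18.41 and 18.42), and Kit (14.25 and 13.63) did not pass. The 4 fibroblast and stroma markers found stayed at or below 5. Basophil and mast cell markers were also high on average (mean of 8 genes 12.05 to 12.27 in WT arrays and 11.49 to 11.89 in K313 arrays, 4 lower and 1 higher by limma), while the erythroid (6.29 to 6.55 and 5.02 to 5.59), megakaryocyte (6.39 to 6.50 and 5.35 to 5.59), monocyte and macrophage (5.96 to 6.26 and 6.25 to 6.45) and lymphocyte (7.26 to 7.57 and 5.95 to 5.98) lists had lower means. Single genes departed from these means. The mast cell gene Fcer1a read 3.63 in WT and 3.64 in K313, the lymphocyte list's Nkg7 13.07 and 12.64, and the erythroid list's Gata1 10.82 and 7.14. Large shifts went both ways. The monocyte and macrophage list's Cd14 rose (5.11 and 9.56), as did Prss34 of the basophil and mast cell list (8.39 and 12.37). Cd200r3 of that same list fell (11.86 and 7.82), and so did the lymphocyte list's Cd79b (9.52 and 5.59). Cd3g, a lymphocyte marker that fell, was low in both groups (4.75 and 3.26). Of the markers found, 1 of 4 erythroid, 2 of 4 megakaryocyte and 3 of 5 lymphocyte genes fell with 0 rises, and of 5 monocyte and macrophage genes 1 rose and 2 fell. In bulk RNA, fewer cells of a type and less RNA per cell cannot be told apart. The part of Hoxb8, of the granulocyte markers and of the other cell types in the values below was not tested.

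None of the 43 members passed the test between the 2 forms of C/EBPα: 0 rose and 0 fell (limma over all probe sets, Benjamini-Hochberg adjusted p under 0.05), whereas 7.75% of all probe sets passed, 3.77% higher and 3.97% lower in K313. Among probe sets with a mean level of at least 7, a bound chosen after the data were seen and below every member's mean, 12.8% passed. At an unadjusted p under 0.05, 8 members were higher and 0 lower, against 8.79% and 9.04% of all probe sets. With each array shifted to a common median that count was 1 higher and 0 lower. The share of all probe sets at this unadjusted p was not counted under that shift. At the adjusted p, 727 of all probe sets were then higher in K313 and 1064 lower. The array medians that set the shift, 5.01 to 5.13, lie below every member's level. Without that shift, 1000 of the 8632 probe sets with a mean of at least 7 were higher at this p and 1337 lower. The smallest adjusted p of any member was 0.149, for Cad.

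The point estimates leaned upwards by a small amount. K313 minus WT was above 0 in 36 members and below 0 in 7, with a median of 0.14, from -0.21 (Noc4l) to 0.67 (Nop2), all on the log2 scale. Over all probe sets 52.2% were above 0 and the median was 0.02. Among probe sets with a mean of at least 7, 46.5% were above 0 and the median was -0.03. The shift to a common median lowers every probe set's difference by the same amount. The members then split 25 above and 18 below 0, with a median of 0.06, while 39.7% of all probe sets were above 0, with a median of -0.06, so the distance between the 2 medians was as before. With quantile normalization they split 36 and 7, with a median of 0.17. The 95% intervals of the single members, before adjustment, bound how large a change these data allow. They lay inside a 1.5-fold change in both directions for 24 of the 43 members. That held for 49.7% of all probe sets and 41.0% of those with a mean of at least 7. The members' intervals lay inside a 2-fold change for 41, where 88.3% of all probe sets and 82.0% of those with a mean of at least 7 did. The 2 exceptions among the members were Nop2, with an upper bound of 1.29, and Ftsj3, with 1.02, both on the log2 scale.

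**Figure D1:**
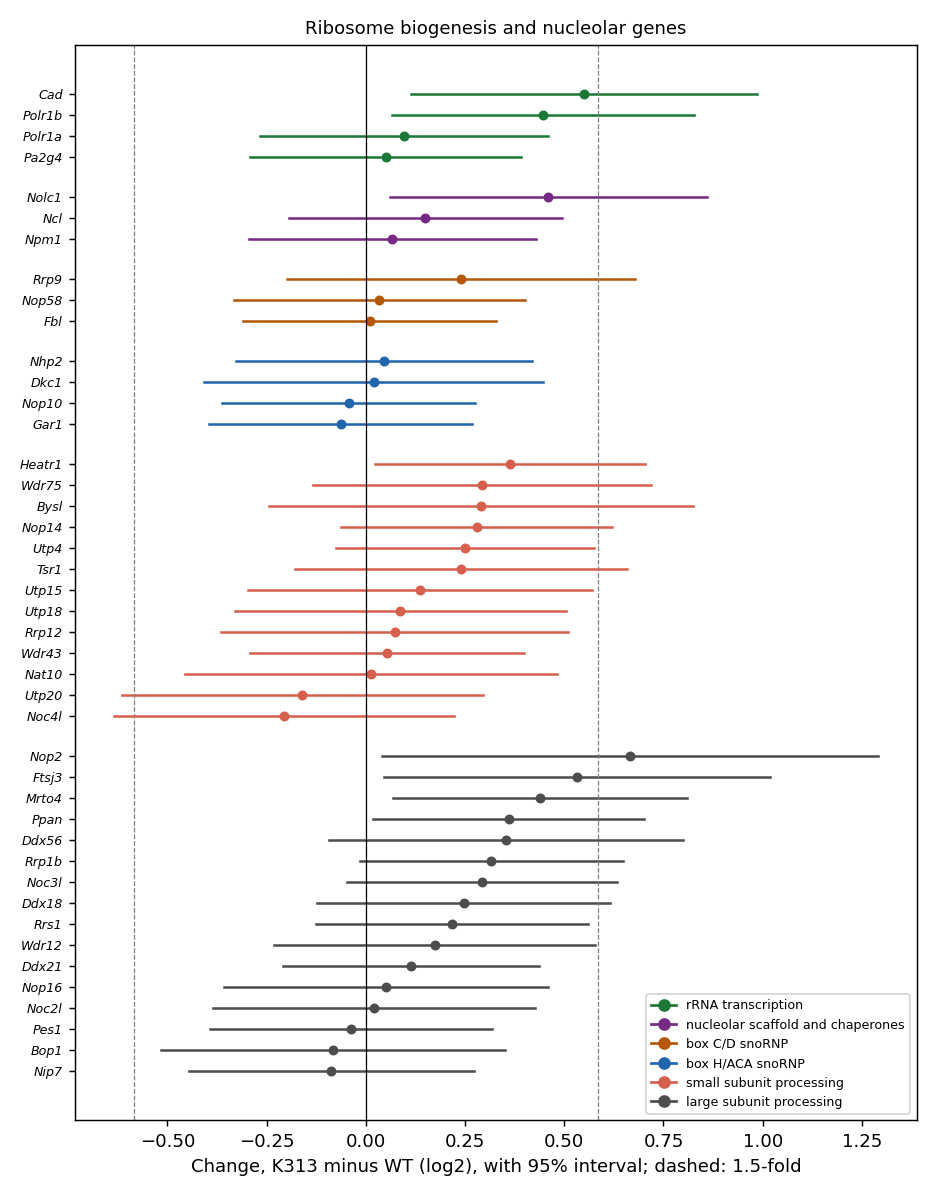
Change of each of the 43 members (K313 minus WT, log2 scale; point, limma estimate; line, 95% interval before adjustment; n = 3 arrays per group), in colours by role, with dashed lines at a 1.5-fold change. Most points lie between 0 and 0.5, and the snoRNP proteins other than Rrp9 sit close to 0 while the members farthest to the right are Nop2, Cad and Ftsj3.

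Under the first step, synthesis of the precursor, 4 members were grouped, and 2 of them, Polr1a and Polr1b, are polymerase I subunits. Neither catalytic RNA polymerase I subunit passed, and the 2 were not tested against each other. Polr1b, the second largest subunit, read 10.80, 11.08 and 11.00 in WT replicates 1 to 3 and 11.18, 11.65 and 11.39 in K313 replicates 1 to 3, the order used for each gene below. All K313 arrays were above all WT arrays, by 0.45 ± 0.17 on the log2 scale (SE, n = 3 per group; limma adjusted p = 0.189). Polr1a, the largest subunit, read 12.42, 12.02 and 12.38 against 12.40, 12.41 and 12.30, a difference of 0.10 ± 0.16, and the groups overlapped. Cad, the enzyme that begins pyrimidine synthesis and so supplies nucleotides for RNA, read 8.19, 8.51 and 7.99 against 8.46, 9.01 and 8.87. Its difference of 0.55 ± 0.20 (adjusted p = 0.149) did not pass, and K313 replicate 1 lay below WT replicate 2. Pa2g4, a growth-regulated protein of the nucleolus, differed by 0.05 ± 0.15 (16.54 to 16.83 in WT and 16.64 to 16.74 in K313).

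Among the structural proteins and chaperones of the nucleolus, Nolc1 was the 1 member with a visible gap. It encodes Nopp140, which escorts snoRNPs between the nucleolus and Cajal bodies. Its level was 11.62, 11.12 and 11.62 in WT and 11.83, 12.06 and 11.85 in K313, a difference of 0.46 ± 0.18 (adjusted p = 0.198). WT replicate 2 was the low array, and without it the difference was 0.29. Nucleolin, Ncl, which binds nascent precursor RNA, read 15.36, 15.45 and 15.53 against 15.57, 15.76 and 15.46, a difference of 0.15 ± 0.16 (adjusted p = 0.717) with overlapping groups. Nucleophosmin, Npm1, the abundant histone and ribosome chaperone that is often mutated in acute myeloid leukaemia, read 16.57, 16.60 and 16.45 against 16.52, 16.85 and 16.45, a difference of 0.07 ± 0.16. Its 95% interval ran from -0.30 to 0.43. Npm1 has pseudogene copies, and the sources used here do not state how the array's probes treat them.

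The proteins of the snoRNPs had estimates close to 0, apart from Rrp9, whose particle serves cleavage. In the box C/D particles, which methylate ribosomal RNA, the methyltransferase fibrillarin, Fbl, read 15.51, 15.55 and 15.58 in WT and 15.56, 15.60 and 15.51 in K313. The difference was 0.01 ± 0.14, with a 95% interval of -0.31 to 0.33. The scaffold protein Nop58 differed by 0.03 ± 0.17 (adjusted p = 0.956). Rrp9, which binds the U3 snoRNA needed for the first cleavages, read 10.16, 9.51 and 9.97 against 9.94, 10.34 and 10.08, a difference of 0.24 ± 0.20 (adjusted p = 0.623). In the box H/ACA particles, which convert uridine to pseudouridine, all 4 proteins had 95% intervals inside a 1.5-fold change. Gar1 read 12.07, 11.88 and 11.95 against 11.96, 11.95 and 11.80 (-0.06 ± 0.15, adjusted p = 0.897), and Nop10 read 16.44, 16.34 and 16.35 against 16.34, 16.33 and 16.33 (-0.04 ± 0.14, adjusted p = 0.932). The pseudouridine synthase dyskerin, Dkc1, differed by 0.02 ± 0.19 and Nhp2 by 0.05 ± 0.17. The groups overlapped in these proteins.

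Of the 13 factors that process the small subunit, 11 differed by more than 0 and 2 by less, with a median of 0.14. Heatr1, a large scaffold protein of the complex that also supports polymerase I transcription, read 12.68, 12.78 and 12.80 in WT and 13.00, 13.28 and 13.07 in K313. The groups did not overlap, and the difference was 0.36 ± 0.15 (adjusted p = 0.239). Nop14, which joins the maturing 40S particle, read 13.02, 12.98 and 13.22 against 13.24, 13.45 and 13.37, a difference of 0.28 ± 0.15 (adjusted p = 0.403). Utp4, a subunit of the complex that binds the 5′ end of the precursor, was also without overlap, with 14.22, 14.21 and 14.07 in WT and 14.39, 14.47 and 14.39 in K313, a difference of 0.25 ± 0.15.

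The other small subunit factors overlapped between the groups. Wdr75 and Wdr43, partners of Utp4 in the same complex, differed by 0.29 ± 0.19 and 0.05 ± 0.16, and Utp15, another of its subunits, by 0.14 ± 0.20. Bysl, a late 40S factor, differed by 0.29 ± 0.24, with WT replicate 2 at 10.95 and the other 5 arrays between 11.52 and 11.99. The GTPase-like factor Tsr1 differed by 0.24 ± 0.19, Utp18 by 0.09 ± 0.19, the export factor Rrp12 by 0.07 ± 0.20 and the RNA acetyltransferase Nat10 by 0.01 ± 0.21. Noc4l, the partner of Nop14, and Utp20 had negative differences, of -0.21 ± 0.19 and -0.16 ± 0.21. Adjusted p-values of these 10 genes were 0.507 or more.

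The largest difference was in a large subunit factor. Nop2, a methyltransferase of the 60S ribosomal RNA and a proliferation antigen, read 13.03, 14.20 and 14.18 in WT and 14.25, 14.60 and 14.56 in K313. Its difference of 0.67 ± 0.28 (adjusted p = 0.241), a 1.59-fold change, was the largest of the 43, and it rests in large part on WT replicate 1, without which it was 0.28. The RNA methyltransferase Ftsj3 read 10.61, 10.15 and 11.07 against 11.13, 11.28 and 11.02, a difference of 0.53 ± 0.22 (adjusted p = 0.227), and WT replicate 3 lay above K313 replicate 3. The Ftsj3 value moved with the WT arrays: it was 0.76 without WT replicate 3 (adjusted p = 0.0555) and 0.30 without WT replicate 2 (adjusted p = 0.498).

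Mrto4, which holds the site of the ribosomal stalk on the 60S precursor, read 12.64, 12.31 and 12.40 in WT and 12.69, 13.05 and 12.93 in K313, a difference of 0.44 ± 0.17 (adjusted p = 0.181) with no overlap. Ppan, a 60S factor, read 11.16, 11.30 and 11.37 against 11.66, 11.75 and 11.50, a difference of 0.36 ± 0.15 (adjusted p = 0.248), also with no overlap. In Rrp1b, Noc3l and Rrs1 the K313 arrays were likewise all above the WT arrays, by 0.32 ± 0.15, 0.29 ± 0.15 and 0.22 ± 0.16. These are part of 11 members in which all K313 arrays exceeded all WT arrays, with 0 members the other way round, where 11.0% of all probe sets were without overlap and higher in K313 and 10.9% without overlap and lower. Among the 8632 probe sets with a mean of at least 7, 1155 were without overlap and higher and 1513 without overlap and lower.

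The PeBoW complex, the trio of Pes1, Bop1 and Wdr12 that large subunit maturation needs, showed no common direction. Pes1 read 14.78, 14.37 and 14.58 against 14.52, 14.51 and 14.59 (-0.04 ± 0.16), Bop1 9.43, 9.71 and 9.43 against 9.22, 9.84 and 9.26 (-0.08 ± 0.20) and Wdr12 14.87, 14.41 and 14.94 against 14.77, 14.90 and 15.07 (0.17 ± 0.18). The groups overlapped in all 3. Of the RNA helicases, which unwind precursor RNA, Ddx56 differed by 0.35 ± 0.20, with its lowest value, 9.74, in WT replicate 2, and without that array by 0.13. Ddx18 differed by 0.25 ± 0.17 and Ddx21 by 0.11 ± 0.15. The remaining 60S factors were Nop16 (0.05 ± 0.19), Noc2l (0.02 ± 0.18) and Nip7 (-0.09 ± 0.16).

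**Figure D2:**
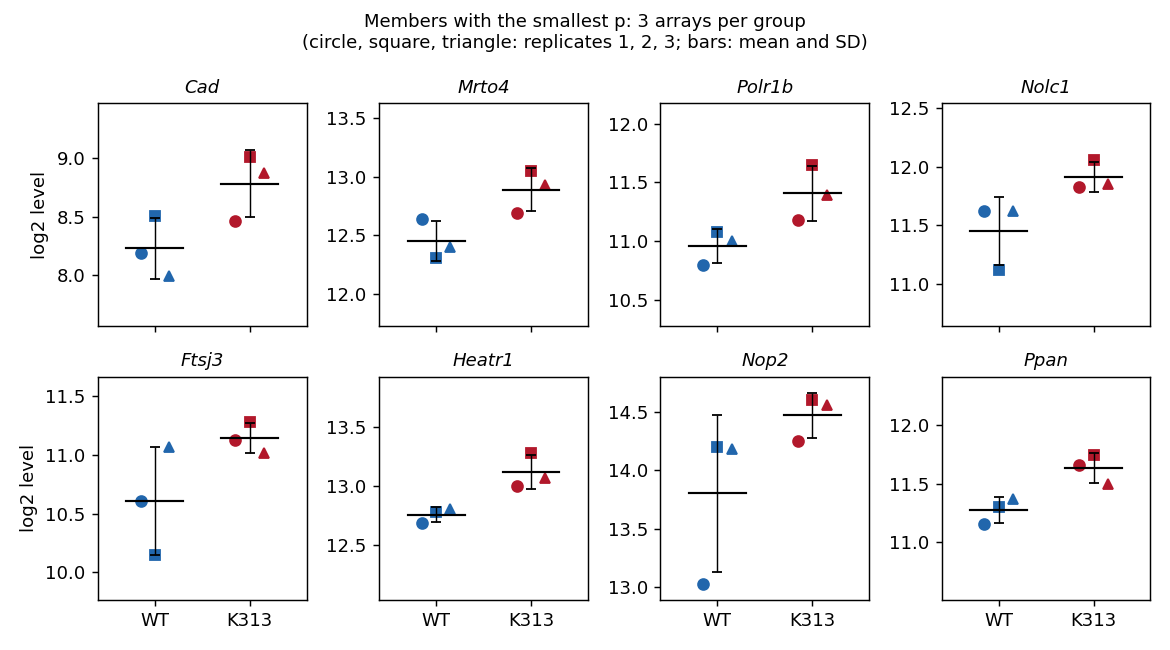
Log2 levels of the 8 members with the smallest p, 1 panel each with an axis of the same span (circle, square and triangle, replicates 1, 2 and 3; bars, mean and SD, n = 3 arrays per group). The groups overlap in Cad and Ftsj3, and in Nop2 the low WT mean comes with 1 array at 13.03.

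The members' deviations were not even across arrays. Each member's values were set against its own mean over the 6 arrays. The median of these deviations over the 43 members was -0.02, -0.18 and -0.01 in WT replicates 1, 2 and 3 and 0.02, 0.15 and 0.08 in K313 replicates 1, 2 and 3. WT replicate 2 was the lowest array for 22 of the 43 members and K313 replicate 2 the highest for 19. Such counts were not taken over all probe sets. The median deviation over all probe sets was -0.02 in WT replicate 2 and 0.01 in K313 replicate 2. Over probe sets with a mean of at least 7 it was -0.05 and -0.02, closer to 0 than the members' medians on both arrays. The array quality weight was lowest in WT replicate 2 (0.74) and highest in K313 replicate 2 (1.43). Without WT replicate 2 the members' median difference was 0.06, with 27 above 0, and without K313 replicate 2 it was 0.10, with 28 above 0 and 0 at an unadjusted p under 0.05. With both arrays left out it was -0.01, with 21 of 43 above 0. These 2 arrays were picked from the deviations above, so this value had to shrink and is given as a description only. Without WT replicate 3 it was 0.16.

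**Figure D3:**
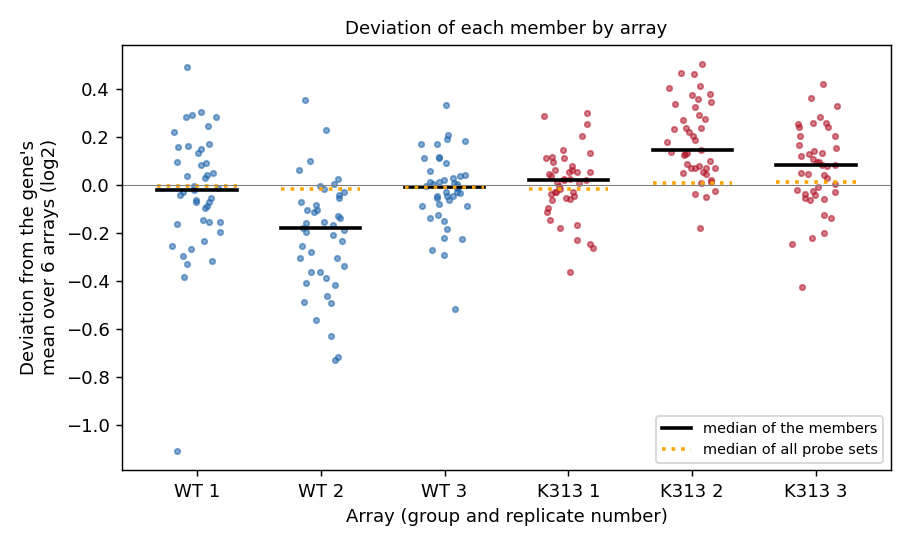
Deviation of each member from its own mean over the 6 arrays (log2), by array, with the median of the 43 members as a solid bar and that of all probe sets as a dotted bar. WT replicate 2 has the lowest member median (-0.18) and K313 replicate 2 the highest (0.15), while the medians of all probe sets stay within 0.02 of 0.

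The letters of the members' promoters were read for the E-box bound by MYC and MAX and for a C/EBP site form. The windows, from RefSeq on GRCm38.p6, run from 250 bases before to 50 bases after each gene's start, and 40 of the 45 listed genes have one (Bop1, Npm1, Fbl, Rrp12 and Rrs1 were not matched). The 40 include Gnl3 and Nop56, which have no probe set. CACGTG, searched on both strands, occurs in 7 of these 40 genes (17.5%) and in 8.09% of all 27025 genes with a window. Of the 7, Nop2 and Utp18 hold it before the start, and Utp4, Utp20, Pes1, Tsr1 and Wdr43 after it. TTGCNNAA, searched on both strands, occurs in 4 of the 40 (10.0%) and in 12.2% of all genes. The 4 are Ppan, Ddx56, Rrp1b and Nolc1. The 2 E-boxes before the start are shown because they belong to the member with the largest difference and to 1 with little difference, and the C/EBP form is shown for Nolc1 and Ppan, whose differences were the largest of its 4 genes. Sequences run 5′ to 3′ on the gene's strand, and capitals mark the match.
Nop2, chr6:125131793-125131858, plus strand: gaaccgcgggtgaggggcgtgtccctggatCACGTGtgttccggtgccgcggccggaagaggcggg
Utp18, chr11:93885767-93885816, minus strand: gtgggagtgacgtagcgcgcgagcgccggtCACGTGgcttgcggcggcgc
Nolc1, chr19:46075667-46075734, plus strand: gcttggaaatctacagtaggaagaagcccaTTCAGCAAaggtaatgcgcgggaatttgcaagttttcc
Ppan, chr9:20887963-20888030, plus strand: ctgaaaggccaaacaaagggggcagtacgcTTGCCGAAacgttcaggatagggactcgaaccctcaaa

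A match is a description of the letters and not a site of binding. The E-box begins 60 bases before the start in Nop2 (difference 0.67 ± 0.28) and 20 bases before it in Utp18 (0.09 ± 0.19). The 5 members with the E-box after the start had differences from -0.16 (Utp20) to 0.25 (Utp4). In Nolc1 the C/EBP form begins 150 bases before the start and lies on the opposite strand, and in Ppan it begins 182 bases before it, with another 123 bases before.

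Myc, the regulator of many of these genes, did not pass the test. It read 16.71, 16.65 and 16.65 in WT and 16.85, 16.79 and 16.86 in K313, all K313 arrays above all WT arrays, but by 0.16 ± 0.14 (adjusted p = 0.655). Of the 12 genes of the MYC and MAX network, 0 rose and 1 fell, where 3.77% of all probe sets rose and 3.97% fell. In this network 5 differences were above 0 and 7 below. Mxi1 was higher in K313, by 0.49 ± 0.17 (limma adjusted p = 0.140), and did not pass. The gene that fell was Mxd4, whose product pairs with MAX and opposes MYC. It went from 10.54, 10.43 and 10.38 to 9.85, 9.39 and 9.79, a change of -0.77 ± 0.17 (adjusted p = 0.0163). The Mxd4 call was lost without WT replicate 1 (adjusted p = 0.0576) and without K313 replicate 2 (0.0795).

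Few other genes of ribosome assembly passed the test. A further 4 lists of 139 genes, of which 131 were measured, held 1 rise and 1 fall, with a median change of 0.08 and 88 of 131 above 0. The medians were 0.05 for 9 polymerase I genes, 0.12 for 45 small subunit genes, 0.03 for 54 large subunit genes and 0.07 for 23 genes of snoRNP assembly and the RNA exosome. The rise was in Nop9, an RNA-binding protein of 40S assembly, from 8.58, 8.41 and 8.73 in WT to 9.17, 9.48 and 9.68 in K313. It changed by 0.87 ± 0.18 (adjusted p = 0.0107), a call lost without K313 replicate 3 (adjusted p = 0.0526). The fall was in Riok3, a kinase found on 40S precursors, from 12.07, 11.93 and 11.87 to 11.52, 11.39 and 11.10. It changed by -0.62 ± 0.17 (adjusted p = 0.0450) and missed the threshold whichever of the 6 arrays was left out (adjusted p between 0.0526 and 0.171).

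The ribosomal proteins that these factors load gave no call. Of 65 cytosolic ribosomal protein genes, 0 rose and 0 fell with limma, and 2 were higher and 0 lower at an unadjusted p under 0.05. Their median change was 0.03, and 58 had 95% intervals inside a 1.5-fold change, against 49.7% of all probe sets. Of 15 measured proliferation genes, such as Mki67 and Top2a, 0 rose and 0 fell, 0 passed at an unadjusted p under 0.05 and the median change was 0.01. These lists were not tested against the members.

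**Figure D4:**
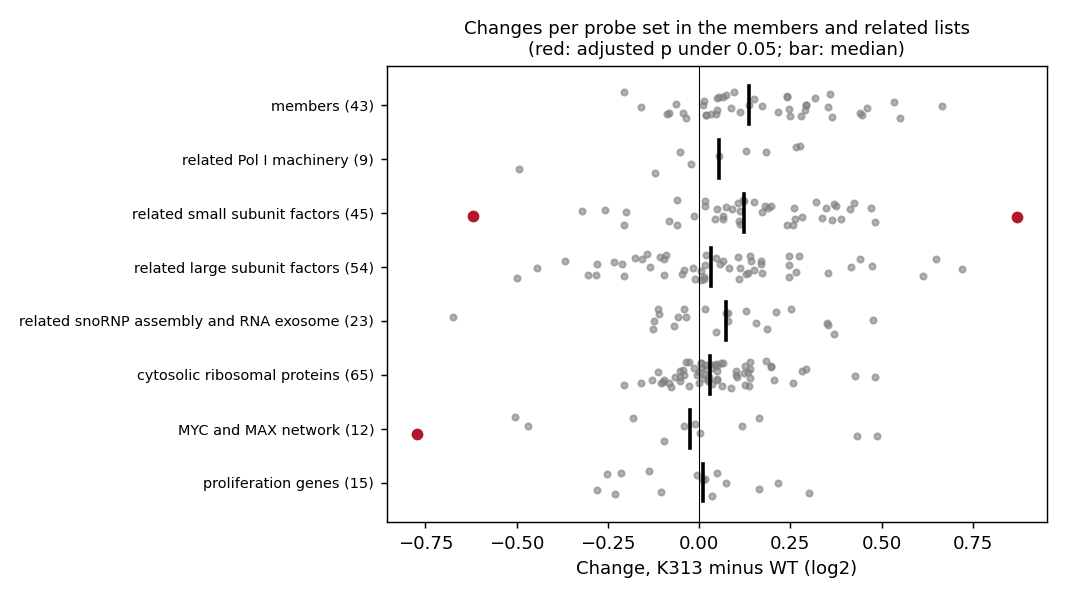
Change of each probe set (K313 minus WT, log2 scale) in the 43 members, 4 lists of related assembly genes, cytosolic ribosomal proteins, the MYC and MAX network and proliferation genes, with the number of probe sets in brackets, medians as bars and calls (limma adjusted p under 0.05) in red. The 3 calls are Nop9 (0.87), Riok3 (-0.62) and Mxd4 (-0.77), and no member is among them.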

How the data were processed

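The authors deposited log2 expression values, 1 per probe set and array. Per the submitters' processing notes, the authors made them with RMA and the Transcriptome Analysis Console, with no version given. RMA corrects background, brings arrays to a common distribution and summarizes probes, so differences in RNA content per cell are lost. Folds near both ends of an array's range are compressed. Arrays have no read depth; their number, 3 per group, limits the precision (median SE 0.18 over all probe sets, 0.17 for the members). The table has 22206 probe sets: 19572 with 1 symbol, 2634 with none, 0 columns of other samples. The sources used here name no genome build for the array.

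K313 was compared with WT by limma 3.58.1 (R 4.3.3; lmFit with group alone, eBayes default, two-sided). All probe sets were fitted, and p was adjusted over them by Benjamini-Hochberg, with 0.05 as the threshold. The fit was checked on simulated data. Alternatives were 2 scalings, removal of the lowest 30% of probe sets, an intensity trend with robust prior, array weights, a replicate block and leaving out arrays.

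Members and lists were chosen with earlier results of these data known. Named were all called members, the 2 with the smallest p per role and the other members with change and SE. Up to 4 called genes of each other list, Myc, Mxi1 and the markers were also named.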

Additional observations from a re-analysis of the deposited data

How the results depend on the processing

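The counts of 0 members higher and 0 lower in K313 held under all 13 alternatives run, with a smallest member adjusted p between 0.0555 (without WT replicate 3) and 0.409 (without K313 replicate 2). Over all probe sets 1720 were called; leaving out 1 array gave 1228 to 1465, leaving out both arrays numbered 2 (chosen after seeing the data) gave 1057, and the other alternatives 1546 to 1791. The members' median change of 0.14 ranged from 0.055 to 0.20 when 1 array was left out and was -0.01 without both arrays numbered 2, which were picked for their deviations in the members; with a common median it was 0.06, against -0.06 over all probe sets. No pairing by replicate number was seen: deviations of same-numbered arrays correlated at -0.061, 0.029 and -0.062, and those of WT replicate 3 and K313 replicate 1 at 0.138. With 3 arrays per group this cannot exclude a pairing. With the number as a replicate block 1546 probe sets and 0 members were called, Riok3 being lost (adjusted p = 0.0623). Riok3 was also lost with quantile normalization (0.0537), and Mxd4 and Nop9 without both arrays numbered 2 (0.139 and 0.125). Some differences that were not called changed sign. With a common median, which lowers every difference by the same amount and so turns the smallest positive ones by construction, these were Dkc1 -0.057, Fbl -0.067, Nat10 -0.063, Nhp2 -0.03, Noc2l -0.057, Nop16 -0.027, Nop58 -0.043, Npm1 -0.01, Pa2g4 -0.027, Rrp12 -0.0033, Wdr43 -0.023. Under the other alternatives the cause was not tested. With array weights Nat10 was -0.057. Without both arrays numbered 2 they were Bysl -0.085, Dkc1 -0.22, Fbl -0.01, Nat10 -0.14, Noc2l -0.055, Nop16 -0.17, Nop58 -0.14, Npm1 -0.025, Pa2g4 -0.02, Polr1a -0.05, Rrp12 -0.20, Rrp9 -0.055, Utp15 -0.05, Utp18 -0.11, Wdr43 -0.04. Leaving out 1 array gave Bop1 -0.28 to 0.027, Dkc1 -0.11 to 0.17, Fbl -0.012 to 0.033, Nat10 -0.23 to 0.16, Nhp2 -0.037 to 0.17, Noc2l -0.10 to 0.20, Nop16 -0.12 to 0.19, Nop58 -0.06 to 0.13, Npm1 -0.055 to 0.14, Pa2g4 -0.0067 to 0.14, Pes1 -0.14 to 0.065, Polr1a -0.03 to 0.17, Rrp12 -0.077 to 0.24, Utp15 -0.022 to 0.34, Utp18 -0.095 to 0.25, Utp20 -0.32 to 0.012, Wdr43 -0.017 to 0.15. Near both ends of the signal range array differences are compressed, and 3 arrays per group limit what small ones can show.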
